A study of Homo sapiens with 3 samples.

Results

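The promoters of 10 pluripotency genes were followed in cardiomyocytes made from human embryonic stem cells. The genes are *POU5F1*, *SOX2*, *NANOG*, *LIN28A*, *LIN28B*, *DPPA4*, *DPPA2*, *ZFP42*, *SALL4* and *KLF4*. A promoter fragment was taken as a restriction fragment that the deposited calls list as a promoter and that holds an annotated transcript start of one of these genes. Of the 10 genes, 5 had such a fragment, and *LIN28B* had 2, which gave 6 promoter fragments of 19075 in the series. Their interactions numbered 138 of 200587.

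The assay was promoter capture Hi-C (PCHi-C). Chromatin is fixed, digested with HindIII and ligated, so that neighbouring DNA becomes joined, and joined pieces that include a promoter are captured and sequenced. There were 3 biological replicates of hESC-CMs, made at passage 32 from WA09 (H9), an established line of human embryonic stem cells, and selected for 6 days in lactate medium without glucose. The purity given is at least 80-90% by flow cytometry and qPCR for myosin heavy chain and *TNNT2*, so cells other than cardiomyocytes could be present. All samples came from 1 cell line and 1 condition. Undifferentiated stem cells were not analysed here, so no change upon differentiation was measured and no group test was made. RNA was not measured in these libraries, so the transcriptional state of the 10 genes is not known from these data. An interaction is a pair of fragments with a CHiCAGO score, which rises with the excess of read pairs over a background set by distance and technical noise. Scores start at 5, and a pair below 5 is not listed, so a missing pair was not shown to be absent. Replicates 1, 2 and 3 list 112473, 109731 and 110740 pairs, with median scores of 6.63, 6.64 and 6.65. Read counts behind the pairs were not used here, so no counting error is given for a single score.

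Pluripotency is the ability of early embryonic cells to form every tissue of the body. The transcription factors POU5F1 (OCT4), SOX2 and NANOG bind one another's regulatory DNA and hold this state. KLF4 is a zinc finger factor used with POU5F1 and SOX2 to reprogram somatic cells. SALL4 and ZFP42 (REX1) are zinc finger proteins of stem cells. LIN28A and LIN28B are RNA-binding proteins that block maturation of the let-7 microRNAs, and DPPA2 and DPPA4 are chromatin proteins encoded side by side on chromosome 3. These genes are generally silenced as cells leave pluripotency, while SOX2 and KLF4 are used again in other lineages.

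The unit of the assay is a HindIII fragment. Among the partners of *SOX2* that were called in all 3 replicates and are no longer than 300 bases, the 250-base fragment printed here had the highest mean score, with values of 22.81, 20.28 and 20.87 in replicates 1, 2 and 3. It is shown whole because it is one of the strongest contacts of the group and lies 537 kb from the *SOX2* promoter fragment, in no annotated gene with a symbol. Its position is chr3:181972813-181973062 on GRCh37, plus strand, and the capitals mark the end left by the HindIII cut.
SOX2 partner: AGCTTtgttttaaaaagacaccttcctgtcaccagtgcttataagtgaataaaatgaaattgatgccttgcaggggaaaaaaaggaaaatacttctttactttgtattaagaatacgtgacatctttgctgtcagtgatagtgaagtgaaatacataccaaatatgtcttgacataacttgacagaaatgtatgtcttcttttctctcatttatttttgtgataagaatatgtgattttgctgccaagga

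The next sequence is the middle of the fragment that both *LIN28B* promoter fragments contacted most strongly. It lies in an intron of *LIN28B*, at chr6:105525742-105526041 on GRCh37, plus strand. The capitals mark a match to a core of the CTCF motif, searched on both strands as CCA, NN, AG, NN and GGC in a row, where N is any base. CTCF is the insulator protein found at the feet of many chromatin loops. Windows of 300 bases at the middle of partner fragments held such a match in 0.981% of 109779 cases. The same search covered the strongest partner of each other promoter fragment, among those called in the most replicates. Those of *SOX2*, *DPPA4*, *SALL4* and *KLF4* had no match in the middle window, and the whole *KLF4* partner fragment held 1. That fragment is 10704 bp long, so the share for 300-base windows does not apply to it. No share over whole fragments was taken. The *LIN28B* match is a description of the letters, and binding was not measured.
LIN28B partner: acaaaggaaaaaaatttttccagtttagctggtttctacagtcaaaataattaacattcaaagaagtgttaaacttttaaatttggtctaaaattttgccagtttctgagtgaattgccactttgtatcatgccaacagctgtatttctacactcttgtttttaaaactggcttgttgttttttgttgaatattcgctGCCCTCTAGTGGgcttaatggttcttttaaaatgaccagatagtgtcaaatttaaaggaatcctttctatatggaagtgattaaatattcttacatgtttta

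The calls listed a promoter fragment for *SOX2*, *LIN28B*, *DPPA4*, *SALL4* and *KLF4*. They listed none for *POU5F1*, *NANOG*, *LIN28A*, *DPPA2* or *ZFP42*, in any replicate or on the merged replicates. Of all 20136 protein-coding genes, 77.1% had a promoter fragment listed in at least 1 replicate, against 5 of these 10. A fragment goes unlisted as a promoter when it was not captured or when no pair with it as the promoter reached a score of 5. The calls do not give which fragments were captured, so these cases were not told apart. The main start of *POU5F1* lies in a fragment of 9707 bp, that of *NANOG* in 1846 bp and that of *LIN28A* in 9111 bp, and none of the 3 fragments appeared as a partner of another promoter either. The fragments with the starts of *DPPA2* (13628 bp) and *ZFP42* (4250 bp) did appear, as partners only. Their pairs scored 6.59 for *DPPA2* and 6.47 and 5.77 for *ZFP42*, so some pairs of these 2 fragments did reach 5. Whether the 2 fragments were captured was not tested.

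The partner calls of these unlisted promoters were few. The *DPPA2* fragment was called with the promoter fragment of *CD96*, an immune receptor gene 2228 kb away, in replicate 1 alone at 6.59. The *ZFP42* fragment was called with *F11*, a clotting factor gene, in replicate 2 at 6.47 and with *FAT1*, a protocadherin gene, in replicate 3 at 5.77. Both *ZFP42* contacts spanned over 1 Mb, at 1729 and 1271 kb, and neither recurred. An alternative *POU5F1* start, at position 31148508 of chromosome 6, lies in the next fragment, from 31147993 to 31151524. The *HLA-B* promoter fragment contacted this fragment in each replicate, at 10.46, 10.78 and 15.23, over 179 kb. *HLA-E* contacted it in replicates 2 and 3 at 14.18 and 7.58, and *MUC21*, *ABCF1* and the *TCF19* fragment did so in 1 replicate each. The HLA genes are a family of similar sequences, and the part of read mapping in these contacts was not tested.

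The promoters of 9 of the genes, all but *POU5F1*, were compared in CpG content, a property that the choice of genes did not use. CpG-rich promoters are typical of widely used and developmental genes, and CpG-poor promoters of tissue-restricted genes. In the 300 bases before the main start, the ratio of observed to expected CpG had a median of 0.738 over 19867 protein-coding genes. *KLF4* lay highest of the 9 at 0.918, with 36 CpGs, followed by *SOX2* at 0.734 with 23 and *ZFP42* at 0.700 with 29. The other 6 genes lay below 0.6, from 0.583 for *LIN28B* down to 0.350 for *NANOG* with 5 CpGs. The window of *KLF4*, the most CpG-rich of the 9, is shown with CpG in capitals, at chr9:110252051-110252350 on GRCh37, from the minus strand, on which the gene lies.
KLF4 promoter: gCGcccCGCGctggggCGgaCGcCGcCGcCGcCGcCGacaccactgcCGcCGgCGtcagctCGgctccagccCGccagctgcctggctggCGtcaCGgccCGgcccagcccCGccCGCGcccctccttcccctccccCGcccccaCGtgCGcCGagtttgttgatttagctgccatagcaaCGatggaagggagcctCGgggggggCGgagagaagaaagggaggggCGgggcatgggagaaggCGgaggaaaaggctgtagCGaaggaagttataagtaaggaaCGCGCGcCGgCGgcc

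Promoter fragments were listed for 82.5% of the 12827 genes at a ratio of 0.6 or more and for 69.1% of the 7040 genes below it. Among the 9 genes they were listed for 2 of 3 at or above 0.6 and for 3 of 6 below it. Composite sites for POU5F1 and SOX2 are known from stem cell enhancers and promoters. The letters CATT, N, T, N and ATGCAAA in a row, searched on both strands, occurred in 2 of the 19867 windows (0.0101%), and one of these is *NANOG*, with the match in capitals and its window at chr12:7941698-7941997, plus strand. The shorter ATGCAAA, which is part of it, occurred in 4.00% of windows and, among the 9 genes, in those of *NANOG* and *SOX2*. The letters were chosen after values were seen, so these shares are descriptions and do not test a link with *NANOG*.
NANOG promoter: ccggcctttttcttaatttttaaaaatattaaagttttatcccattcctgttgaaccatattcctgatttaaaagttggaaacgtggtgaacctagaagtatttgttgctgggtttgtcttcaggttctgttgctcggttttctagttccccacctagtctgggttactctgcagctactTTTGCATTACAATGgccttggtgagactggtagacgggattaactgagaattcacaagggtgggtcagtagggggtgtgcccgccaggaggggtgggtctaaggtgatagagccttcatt

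**Figure D1:**
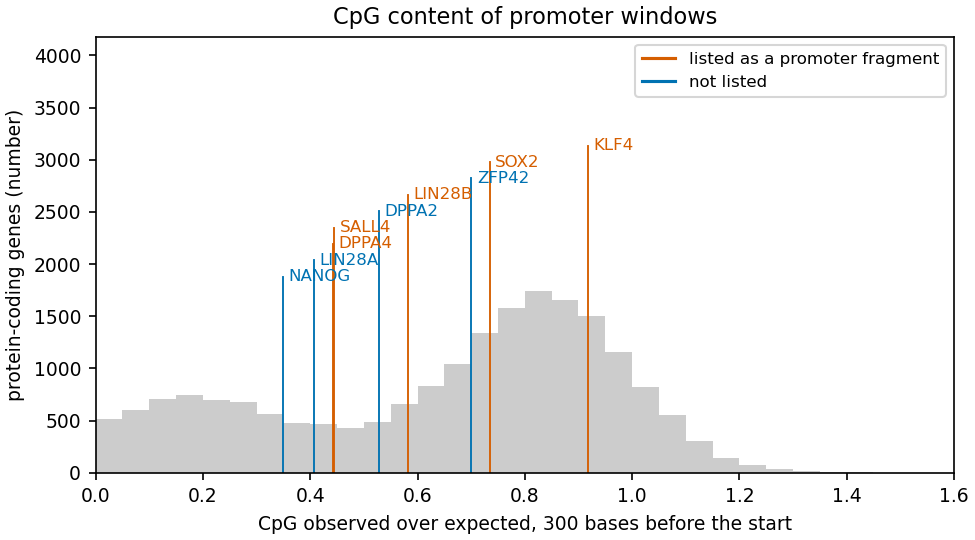
Ratio of observed to expected CpG in the 300 bases before the main start. The grey bars count protein-coding genes, and the lines mark 9 pluripotency genes, coloured by whether their promoter fragment was listed, with heights set only to place the names. *NANOG* and *LIN28A* are lowest and unlisted, while *DPPA4*, *SALL4* and *LIN28B* are also below 0.6 and listed. *ZFP42* at 0.700 is unlisted, and *KLF4* at 0.918 is highest.

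The 6 listed promoter fragments had 90, 84 and 76 interactions in replicates 1, 2 and 3, a mean of 83.3 ± 7.02 (SD, n = 3). Their union held 138. Each replicate listed 43 of these, while 26 appeared in exactly 2 replicates and 69 in a single one. The share in all 3 was 31.2%, against 24% of all interactions. Its 95% Wilson interval, 24.0 to 39.3%, covers counting error only. The interval takes the interactions as independent, although many partners are neighbouring fragments, so it is too narrow. *SOX2* carried much of the share in all 3. Without its promoter fragment 20 of 97 interactions (20.6%) were in all 3 replicates. Distance moved with the share as well. Within 1 Mb, 34 of 72 interactions of the group were in all 3 replicates (47.2%, and 34.4% without *SOX2*), against 34.0% of all interactions at that distance. Beyond 1 Mb it was 9 of 64 (14.1%), against 11.8%. *KLF4* gave 7 of these 9 from 30 contacts that far, and *DPPA4* gave 2 from 26. The other fragments gave none, so the value beyond 1 Mb rests mostly on *KLF4*. The median distance was 967 kb over 136 same-chromosome interactions, against 716 kb in the series. The 2 interactions with other chromosomes, 1 of *SOX2* and 1 of *DPPA4*, were each called in 1 replicate. No interaction joined promoter fragments of 2 of these genes, nor the 2 fragments of *LIN28B*. Among the genes with a fragment, only *SOX2* and *DPPA4* lie on the same chromosome, so few such contacts could be sought.

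The promoter fragments differed in how many partners they had. *SOX2* had 31, 33 and 28 interactions in replicates 1, 2 and 3, a mean of 30.7 ± 2.52 (SD, n = 3). *KLF4* followed with 19, 17 and 18, a mean of 18 ± 1. These ranges overlap neither each other nor those of the other 4 fragments. *DPPA4* had 15, 10 and 13, and the *LIN28B* fragment with the main start had 13, 10 and 10, so their ranges overlap. The upstream *LIN28B* fragment, which also holds a start of the antisense transcript *LIN28B-AS1*, had 10, 9 and 7. *SALL4* came last with 2, 5 and 0. In the union the counts were 41 for *SOX2*, 31 for *KLF4*, 30 for *DPPA4*, 17 and 14 for *LIN28B* and 5 for *SALL4*, a median of 23.5, against 6 over all promoter fragments with a call. *SOX2* exceeded 95.9% of all promoter fragments, *KLF4* 92.3% and *DPPA4* 91.7%, whereas *SALL4* exceeded 38.2%. An interaction in all 3 replicates was found for 5 of the 6 fragments, against 51.9% of promoter fragments in the series.

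**Figure D2:**
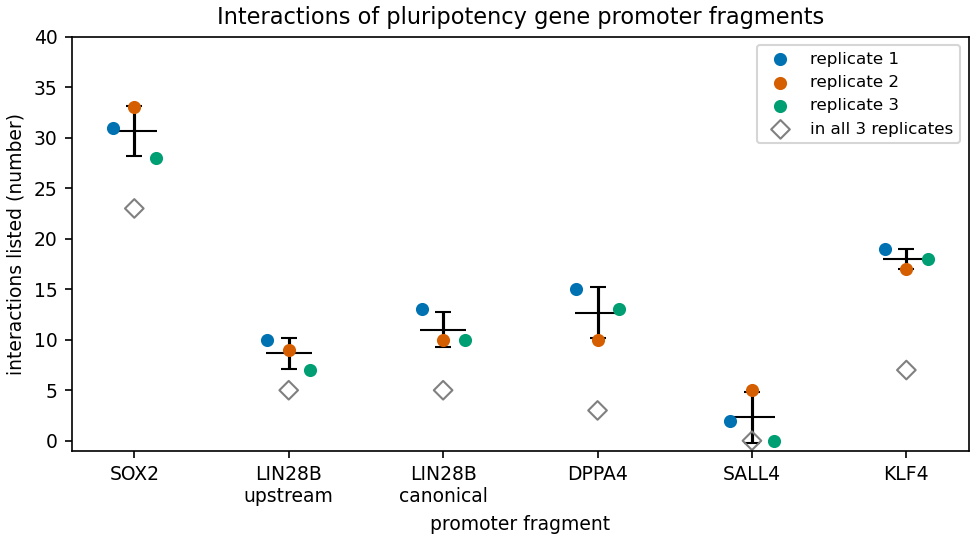
Number of interactions listed for each of the 6 promoter fragments. Filled points are replicates, the horizontal bar and whiskers are mean and SD (n = 3), and open diamonds count interactions in all 3 replicates. *SOX2* lies above the others at 28 to 33, and *SALL4* reaches 0 in replicate 3.

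*SOX2* had the most reproducible contacts of the group. Its promoter fragment spans 18528 bp, chromosome 3 from 181427106 to 181445633, and also holds starts of *SOX2-OT*, the long noncoding RNA gene that overlaps *SOX2*. All 3 replicates called 23 of its 41 interactions (56.1%, 95% Wilson interval 41.0 to 70.1%). The interval covers counting error only and takes the partners as independent, although many are neighbouring fragments. The 40 same-chromosome partners all lay downstream of the gene, towards higher coordinates. The nearest was 481 kb away and the farthest 993 kb. Within 1 Mb, 34.0% of all interactions in the series were in all 3 replicates, and beyond it on the same chromosome 11.8%. Most contacts of *KLF4* and *DPPA4* lay beyond 1 Mb, so the ranking of *SOX2* by this share also reflects distance. Among the 6862 promoter fragments with at least 10 same-chromosome contacts, 34.6% had all of them on 1 side, and 76.0% had a nearer nearest contact than *SOX2*. Within the group, 5 fragments had that many contacts, and those of *SOX2* and *KLF4* had them on 1 side only. None of the *SOX2* partners was a promoter fragment.

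The *SOX2* contacts fell into blocks, taken as at least 3 partner fragments with gaps of at most 10 kb. The first block spans 35.6 kb, from 181953319 to 181988958, and 10 of its 13 fragments were called in all 3 replicates. Its strongest fragment, from 181977922 to 181980301, scored 19.89, 20.62 and 25.77, a mean of 22.1 ± 3.20 (SD, n = 3). The 250-base fragment shown above lies in this block too and had a mean of 21.3 ± 1.32. The second block, from 182318356 to 182362920, overlaps the noncoding gene *LINC02031*, and 5 of its 9 fragments were called in all 3 replicates. Its strongest fragment had scores of 13.86, 18.27 and 14.94, and another of the 5 holds the start of the pseudogene *RPL7L1P8*. The third block is the most compact, with 8 adjoining fragments in 11.8 kb, from 182391949 to 182403793. Each of the 8 was called in each replicate. Their strongest fragment, from 182401759 to 182402550, scored 21.58, 20.36 and 26.62, a mean of 22.9 ± 3.32, the highest among all partners of the 6 promoter fragments. The peaks of the first and the third block differed by less than the spread between replicates. The blocks lie between *SOX2* and *ATP11B*, the next protein-coding gene. Another *SOX2-OT* promoter fragment, 19.0 kb from that of *SOX2*, shared 20 partners with it, 48.8% of the *SOX2* list and 58.8% of its own, and was the only other promoter fragment called in all 3 replicates with a fragment of each block.

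**Figure D3:**
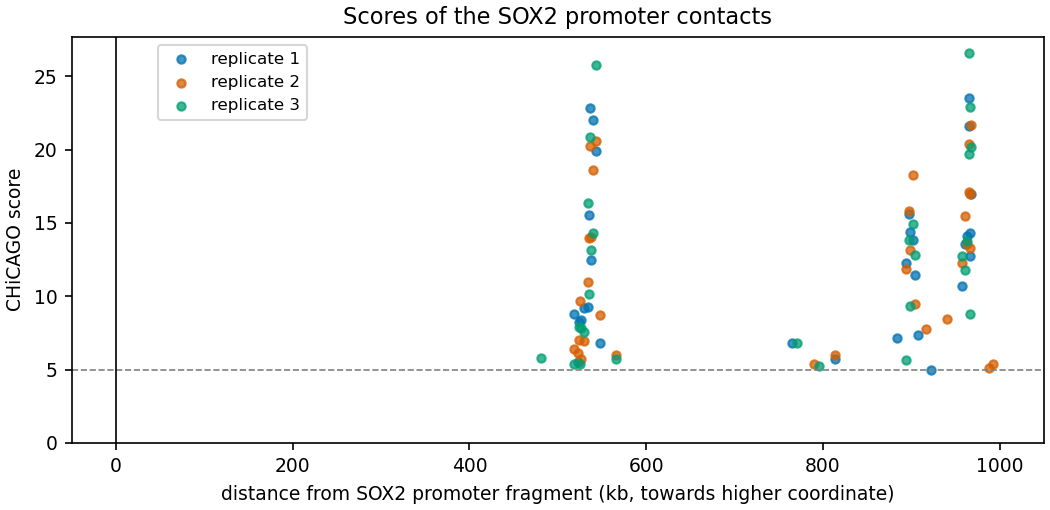
CHiCAGO scores of the *SOX2* promoter contacts on the same chromosome against distance in kb from the promoter fragment, coloured by replicate. The dashed line is the lowest score listed, 5. The contacts stand in groups near 537, 902 and 966 kb, with no contact nearer than 481 kb.

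*KLF4* contacted regions without an annotated gene symbol beyond 1 Mb. Its promoter fragment, on chromosome 9 from 110244650 to 110255868, had 31 partners, of which 30 lay over 1 Mb away. All lay towards higher coordinates, which is upstream of this gene on the minus strand, and their median distance was 1089.8 kb. Of promoter fragments with at least 10 same-chromosome contacts, 86.4% had a nearer nearest contact than *KLF4*, whose nearest was at 787 kb and called in 1 replicate. The main block, from 111293215 to 111350729, held 19 partners, 12 in each replicate, of which 5 were called in all 3. Its strongest fragment among those in all replicates, from 111322655 to 111333358, scored 7.59, 13.11 and 11.74, a mean of 10.8 ± 2.87 (SD, n = 3). A smaller block from 111518172 to 111529235 had 6 partners, with 2 in all replicates. Neither block overlaps a gene with a symbol, and the next protein-coding gene, *ACTL7B*, lies beyond both. No other promoter was called with either block in all 3 replicates. The promoter with the most similar partners was that of the small nuclear RNA pseudogene *RNU6-996P*, 175 kb away, which shared 3 of its 4 partners. The *KLF4* scores were lower than those of *SOX2*, with medians of 7.64, 6.20 and 6.75 against 12.24, 11.84 and 12.27 in replicates 1, 2 and 3. Of the 31 *KLF4* contacts, 7 (22.6%) were called in all 3. These 7 all lay over 1 Mb away, where 11.8% of all interactions in the series were in all 3.

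*LIN28B* was contacted within its own body from both of its promoter fragments. The upstream fragment lies on chromosome 6 from 105378568 to 105390307, and the fragment with the main start, 19.8 kb further on, from 105403020 to 105405355. Near the far end of the gene, between 119 and 146 kb downstream, the first had 7 partners and the second 6. Their strongest partner was the same intronic fragment, from 105525596 to 105526188, the middle of which is shown above. It scored 9.19, 10.94 and 9.48 with the upstream fragment and 12.50, 10.67 and 12.13 with the main one, means of 9.87 ± 0.938 and 11.8 ± 0.968 (SD, n = 3). The ranges of these scores overlap. The adjoining fragment, over an exon of *LIN28B*, scored 9.80, 6.57 and 7.80 with the main promoter fragment, below the peak in each replicate. With the upstream fragment it scored 10.53, 9.42 and 8.73, which overlaps the range of the peak. The lists of the 2 promoter fragments shared 9 partners, 64.3% of the upstream list and 52.9% of the other, and 3 of these were called in all 3 replicates for both. The fragments lie close together and their reads come from the same libraries, so the lists are not independent.

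Further downstream both *LIN28B* fragments reached *PREP*, which encodes the protease prolyl endopeptidase. The upstream fragment was called with the *PREP* promoter fragment in each replicate, at 10.62, 9.31 and 5.50, a mean of 8.48 ± 2.66 over 468 kb. The main fragment was called with it in replicates 1 and 3 only, at 5.70 and 5.83, and with a *PREP* exon fragment 442 kb away in each, at 6.43 ± 1.26. The main fragment also contacted the promoter of *ATG5*, an autophagy gene, in replicates 2 and 3 at 5.37 and 7.66. On the side away from the gene, each fragment had 1 contact, at 4458 kb for the upstream and 4248 kb for the main fragment, both called in 1 replicate.

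*DPPA4* had many contacts, most of them over 1 Mb away, and few were called in all 3 replicates. Its promoter fragment, on chromosome 3 from 109052582 to 109060980, had 30 partners. Each replicate listed 3 of them (10%, 95% Wilson interval 3.46 to 25.6%, covering counting error only), and 25 appeared in a single replicate. The merged calls kept 5 interactions. Of the partners 26 lay over 1 Mb away, and the median distance on the chromosome was 1918 kb. Among these 26, 2 were in all 3 replicates, against 11.8% of all interactions over 1 Mb in the series. Single-replicate calls were the rule at that distance in the series too, at 74.0% between promoter fragments and 74.5% of the rest. Within 1 Mb, 1 of 3 *DPPA4* contacts was in all 3 replicates, against 34.0% in the series. *NECTIN3*, a cell adhesion gene, was overlapped by 12 of the partners and *CD96* by 8. The 3 recurrent partners were all promoter fragments. *PLCXD2*, a phospholipase-like gene 2337 kb away, scored 18.52, 12.40 and 15.37, a mean of 15.4 ± 3.06 (SD, n = 3). *CD96*, 2202 kb away, scored 13.48, 8.90 and 6.55, a mean of 9.64 ± 3.52, and is the promoter fragment that the *DPPA2* fragment met in replicate 1. A *U3* small nucleolar RNA start within *MORC1*, 319 kb away on the other side, scored 6.45, 8.51 and 7.84. The *NECTIN3* promoter fragment was called in replicates 1 and 3 at 13.47 and 5.53.

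Promoter fragments made up 10 of the *DPPA4* partners, and 5 of them recurred in 2 or 3 replicates, including that of *MORC1-AS1*, while each of the other 20 partners was called in 1 replicate. Its 3 contacts within 1 Mb were all with promoter fragments, and 2 of these recurred. Over 1 Mb away 3 of 7 promoter partners recurred and 0 of 19 others. Over all pairs of the series that far apart, 74.0% of those between promoter fragments and 74.5% of the rest were called in a single replicate. At any distance 9.59% of interactions in the series joined a pair of promoter fragments. Over the 6 promoter fragments 20 of 138 interactions (14.5%) had a promoter as partner. These included none of *SOX2*, 1 of *KLF4* (*ACTL7B*), 2 of each *LIN28B* fragment and all 5 of *SALL4*. The promoter with the most similar partners to *DPPA4* was that of the noncoding gene *AC092905.1*, 157 kb away, which shared 13 of them (43.3% of the *DPPA4* list and 13% of its own 100).

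**Figure D4:**
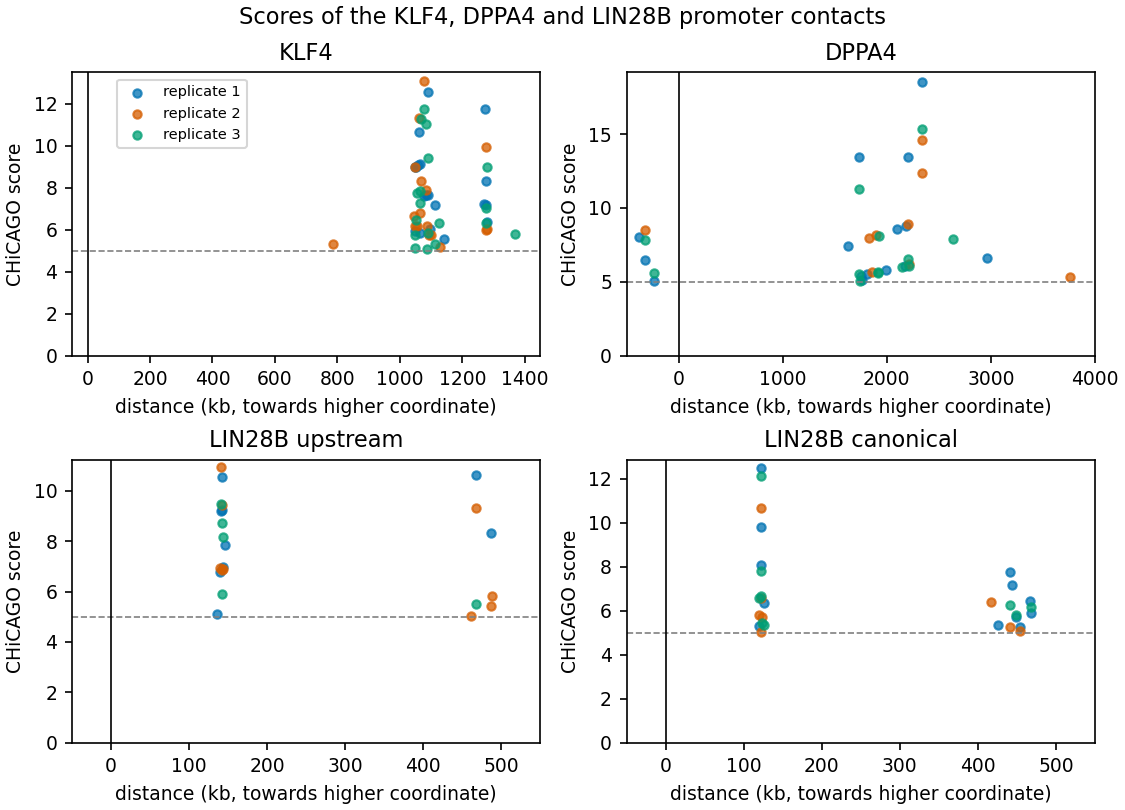
CHiCAGO scores against distance in kb for *KLF4*, *DPPA4* and both *LIN28B* promoter fragments, coloured by replicate, with the lowest score listed (5) as a dashed line. The *LIN28B* panels leave out 3 contacts each over 1 Mb away. *KLF4* contacts gather between 1045 and 1140 kb and near 1275 kb, and most of those of *DPPA4* scatter from 1625 to 3756 kb with few repeats.

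*SALL4* had 5 partners, all promoter fragments and none in all 3 replicates. Its promoter fragment lies on chromosome 20 from 50417053 to 50421846. The contact with *KCNG1*, a potassium channel subunit gene 781 kb away, was called in replicates 1 and 2 at 5.87 and 7.27, and another promoter fragment 806 kb away, with no start of a gene with a symbol, at 5.52 and 8.64. Replicate 2 alone listed the fragments of *DPM1* and *MOCS3* at 5.55, of *PFDN4* at 5.59 and one over *BCAS1* at 11.91. Replicate 3 and the merged replicates listed no *SALL4* interaction.

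A wider list of 30 pluripotency genes and a list of 30 cardiomyocyte genes give the setting. Promoter fragments were listed for 24 of the other pluripotency genes (80%), against 77.1% of all protein-coding genes. Of the 30, 10 (33.3%) had an interaction in all 3 replicates, against 43.1% of all protein-coding genes and 4 of the 10 pluripotency genes. The growth regulator *MYC* had the most interactions of this list, 41, with 24 in all 3 replicates. It was followed by *LEFTY1*, a Nodal antagonist, with 25 and 8, and *TBX3*, a T-box factor, with 22 and 12. *TDGF1*, *DNMT3B*, *L1TD1*, *FGF4*, *ESRRB* and *KLF17* had no listed promoter fragment. The median over the 30 genes was 3.5 interactions, against 5 over all protein-coding genes and 2.5 over the 10 pluripotency genes with unlisted genes at 0. All 30 cardiomyocyte genes had a listed promoter fragment, against the same 77.1%, and 28 of them (93.3%, against the same 43.1%) had an interaction in all 3 replicates. Their median was 19.5 interactions. The ryanodine receptor gene *RYR2* had 113, *HAND2* 100, and *GATA4* and *HAND1* 41 each, the same number as *SOX2*. Other genes of this list had few, with 1 for *MYL2*, 2 each for *MYL3* and *ACTN2* and 5 for *TNNT2*. Cardiomyocyte gene contacts were shorter, with a median of 285 kb and 12.2% of them over 1 Mb or with another chromosome, against 47.8% for the 10 pluripotency genes, 50.7% for the other 30 and 44.3% in the series. In all 3 replicates, the shares were 39.2% for the cardiomyocyte genes and 26.8% for the 30 other pluripotency genes. They stand against 25.1% for all protein-coding genes and 24% of all interactions. The lists differ in distance, and in the series this share was 34.0% within 1 Mb and 11.8% beyond it on the same chromosome. These are descriptions of lists and were not tested.

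**Figure D5:**
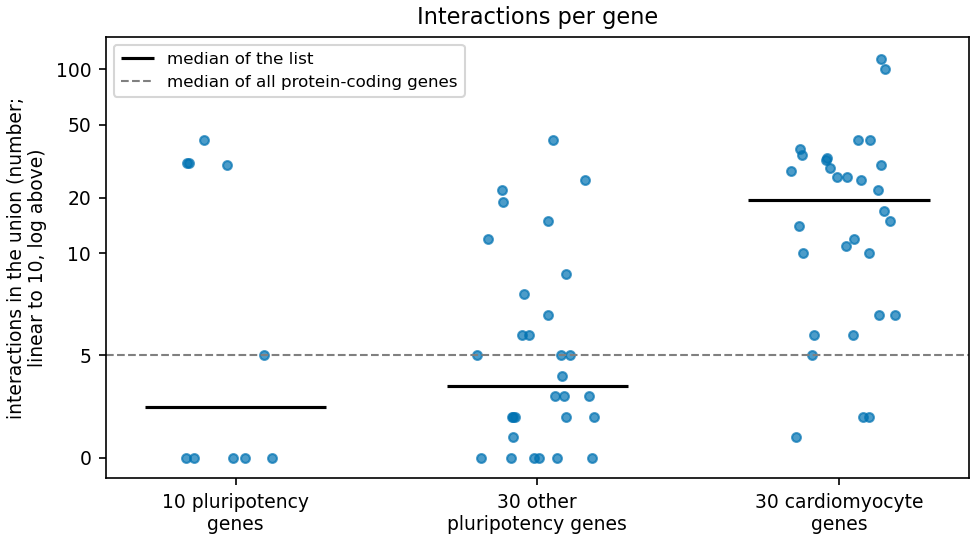
Interactions per gene in the union of the replicates, 1 point per gene, on an axis that is linear to 10 and logarithmic above. Genes without a listed promoter fragment stand at 0. The black bars are list medians of 2.5, 3.5 and 19.5, and the dashed line is the median of all protein-coding genes, 5.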

How the data were processed

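The promoter capture Hi-C files hold pairs of fragments, 1 file per hESC-CM replicate and 1 for the replicates merged. The authors used HiCUP for mapping (hg19/GRCh37) and CHiCAGO with its default settings for calling, and deposited a score for each pair, from 5 up. Versions of both tools are not given in the sources used here. All 127138 fragments listed in the replicates had ends at HindIII sites or chromosome ends of the GRCh37 sequence.

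Transcript starts came from GENCODE v44 lifted to GRCh37. Interactions were taken without regard to the order of fragments, and those listed in any replicate were counted. Distances are between fragment midpoints. The main start is that of the Ensembl canonical transcript. SDs are between replicates. With 1 condition no test was made. Replicates are labelled biological, and their separate differentiations were not described further.

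The 10 genes and the lists were chosen with earlier results of these data known. Named were all 10 genes, their strongest and recurrent promoter partners, the promoter sharing most partners, and the 3 genes per list with the most interactions. Some cardiomyocyte genes with few interactions were named as well. The printed *SOX2* fragment, the block definition, the searched letters and the CpG threshold were chosen after values were seen. Alternatives were scores of at least 7 or 10, each replicate left out, the merged calls, 1 fragment order, protein-coding starts only, matching within 5 kb and, added after seeing the data, *SOX2* left out. The promoter window of *POU5F1* is not reported here. Counting was checked on simulated data. Python 3.11.15, numpy 2.4.6, scipy 1.17.1 and matplotlib 3.10.9 were used.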

Additional observations from a re-analysis of the deposited data

Results flagged for a closer look

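On the merged replicates 4 interactions of these promoter fragments were listed that no single replicate listed. All 4 belonged to the *LIN28B* fragment with the main start, and were flagged because they lie outside the union of the replicates. The fragment of the alternative *POU5F1* start, which is no promoter fragment in the calls, was listed as a partner of the *HLA-B* promoter fragment in 3 replicates, and was flagged as a signal outside the interactions counted.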

How the results depend on the processing

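The number of interactions, 138, fell to 78 at scores of at least 7, 35 at scores of at least 10 and 84 on the merged calls. The median per promoter fragment, 23.5, became 11, 4 and 18 under these settings and 17 without *SOX2*. The share in all 3 replicates, 31.2%, was 45.7% at scores of at least 10, 54.3% with partners matched within 5 kb and 20.6% without *SOX2*. The share over 1 Mb or with another chromosome, 47.8%, was 42.3% at scores of at least 7, 34.3% at scores of at least 10, 27.4% on the merged calls and 67.0% without *SOX2*. The median distance, 967 kb, was 668 kb on the merged calls and 1092 kb without *SOX2*. With each replicate left out, the number of interactions ranged from 111 to 122, the share called in all remaining replicates from 42.6 to 48.2%, the median distance from 959 to 964 kb, the median per promoter fragment from 16.5 to 19.5 and the share over 1 Mb or with another chromosome from 43.4 to 44.6%. A stricter score or fewer replicates lists fewer pairs by construction, and the cause of the other shifts was not tested. Requiring the promoter fragment in the first column, or protein-coding starts only, moved none of these 5 values. By gene, *DPPA4* had 5 interactions on the merged calls in place of 30, *KLF4* 19 in place of 31 and *SALL4* 0 in place of 5. Without replicate 2, *SALL4* had 2. No paired analysis was possible because there was 1 group. Read counts per pair were not used here, so the counting error of pairs near a score of 5 is not given.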
